A study of Rattus norvegicus with 10 samples.

Results

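Hao1, Hao2, Agxt, Agxt2, Grhpr, Hoga1, Dao, Prodh2 and Pipox encode the liver enzymes that make and clear glycolate, glyoxylate and related hydroxy acids, and their transcripts were followed in female rat liver after 13 weeks of indole-3-carbinol. The genes were chosen by function, as enzymes of glycolate, glyoxylate and hydroxyproline metabolism, and the group was picked from the comparison of dosed with vehicle livers, in which Hao2 had the 10th deepest fall of 14217 genes. The differences below are therefore a description, with their spread, and no p-value is given for a member. All probe sets annotated to a member alone were taken, 10 of the 31042 on the array that are not manufacturer's controls. They cover 8 of the 9 genes. No probe set carried the name Pipox in the annotation used here, so this sarcosine and pipecolate oxidase has no value.

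In all, 10 liver RNA samples from female Harlan Sprague-Dawley rats were hybridised to rat whole-genome GeneChip arrays, which read transcripts near their 3' end. Indole-3-carbinol, a compound formed when cruciferous vegetables are broken down, was given in a corn oil vehicle by gavage for 5 of the samples at a dose of 300 mg per kg. The other 5 samples come from rats given corn oil alone by gavage, 0 mg per kg, and serve as vehicle controls. The labels give 5 days per week for 13 weeks for both groups, while the design text names a 2-year study. The labels state neither age nor pooling of animals, nor how the samples relate to animals, so all errors and p-values rest on the spread between samples, which may be technical. The values are log2 expression values normalised by RMA, a method that brings the arrays to a common distribution, and array medians lay between 6.21 and 6.29. The 7 measured hepatocyte markers, Alb and Ttr among them, were all present at high levels and differed between groups by -0.17 to 0.38.

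Glyoxylate is a small, reactive aldehyde acid that hepatocytes form from glycolate, from hydroxyproline of broken-down collagen and from glycine. Peroxisomal and mitochondrial aminotransferases turn it into glycine and a reductase turns it back into glycolate, whereas lactate dehydrogenase oxidises what is left to oxalate, which is poorly soluble and is excreted by the kidney. Inherited loss of the human counterparts of Agxt, Grhpr or Hoga1 causes the primary hyperoxalurias, and Hao1 is a drug target in these diseases.

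At the brightest probe set of each, all 8 measured genes had a lower mean in dosed than in vehicle livers. The remaining probe sets, both of Hoga1, had differences of 0.03 and 0.08. Hao2, Prodh2, Hao1 and Grhpr, 4 of the 8 genes, were called lower, meaning a limma adjusted p under 0.05 over all probe sets. Over all genes 3.11% were called lower and 3.32% higher. None of the 8 was called higher. At an unadjusted p under 0.05 in the same limma fit 0 were higher and 6 lower. The share of all genes at that unadjusted threshold was not worked out, here or for the lists below. Unadjusted counts therefore stand without a background, and how unusual they are cannot be read from them. In the 4 called genes every dosed array lay below every vehicle array, which held for 4.07% of all genes. The median difference of the 8 genes, each taken at its brightest probe set, was -0.37 on the log2 scale, beside -0.0039 over all genes. These shares describe genes picked with this comparison in view. In RNA from whole liver, fewer cells of a type and less RNA per cell cannot be told apart.

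**Figure D1:**
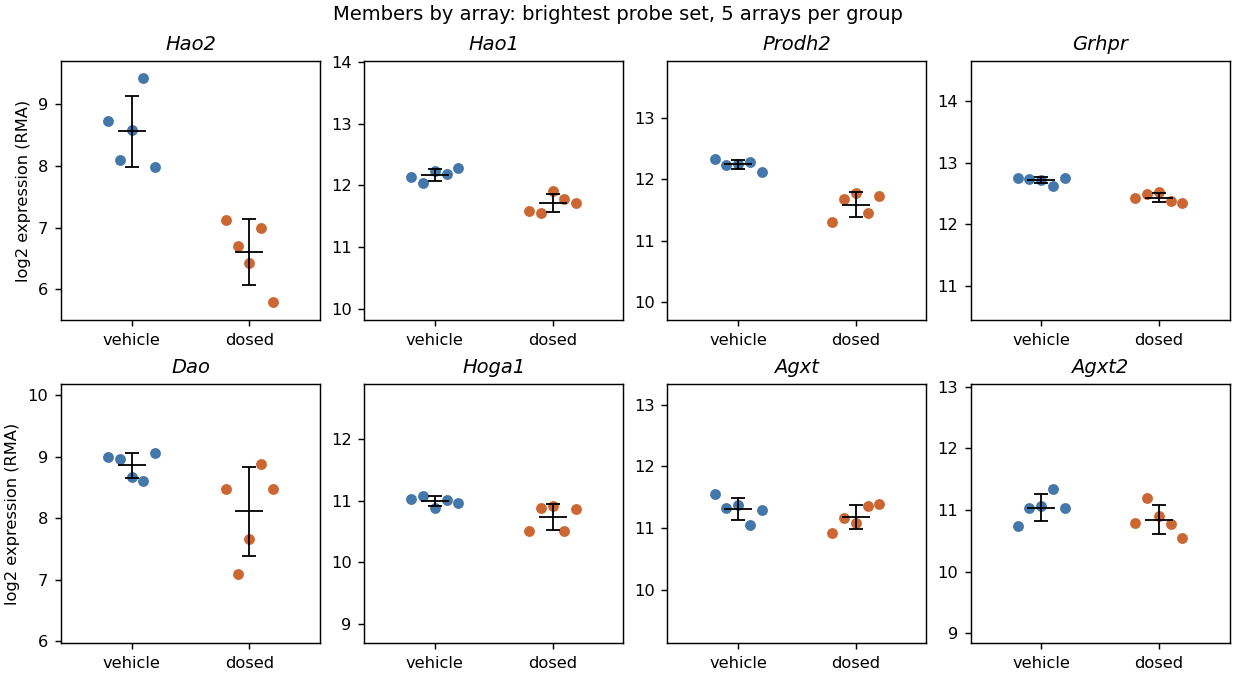
Log2 expression (y axis, RMA) of the 8 measured genes in each of 5 vehicle and 5 dosed arrays, shown as points, with the group mean and SD as bars; every panel spans the same log2 range. Vehicle and dosed points are apart in Hao2, Hao1, Prodh2 and Grhpr and overlap in Dao, Hoga1, Agxt and Agxt2.

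Both hydroxy acid oxidases were lower, Hao2 by far the more. Hao2 encodes the peroxisomal oxidase of longer-chain L-2-hydroxy acids. Its probe set read 8.74, 8.09, 8.58, 9.42 and 7.98 in vehicle arrays 1 to 5. In dosed arrays 1 to 5 it read 7.12, 6.71, 6.43, 6.99 and 5.78. The highest dosed array lay 0.86 below the lowest vehicle array. The means were 8.56 ± 0.57 and 6.61 ± 0.53 (SD, n = 5 each). The difference was -1.96 ± 0.28 on the log2 scale (SE of the limma fit), a level 3.88-fold lower, or 25.8% of the vehicle level on the linear scale.

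Hao1, glycolate oxidase, makes glyoxylate from glycolate in the peroxisome. Its probe set read 12.13, 12.03, 12.23, 12.19 and 12.28 in vehicle arrays and 11.59, 11.55, 11.92, 11.77 and 11.71 in dosed arrays. The groups did not overlap, with a gap of 0.11 between them. The difference was -0.46 ± 0.08 (SE), or 1.38-fold lower.

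Hao2 also varied the most of the 8 genes between vehicle arrays. Its SD over the vehicle arrays was larger than that of 99.1% of probe sets, with 2.71-fold between the highest vehicle array, vehicle 4, and the lowest, vehicle 5. The SD of Hao1 there was 0.10, against a median of 0.14 over all probe sets. Dosed 5 was the lowest dosed array for Hao2 but not for Hao1, whose lowest was dosed 2.

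Of the hydroxyproline enzymes, Prodh2 at the head of the route was lower and Hoga1 at its end gave no uniform picture. Prodh2, the mitochondrial hydroxyproline dehydrogenase, stood at 12.32, 12.23, 12.25, 12.27 and 12.12 in vehicle arrays. The dosed arrays read 11.31, 11.68, 11.77, 11.45 and 11.73. The highest dosed array was 0.35 below the lowest vehicle array, so the groups were well apart. The difference was -0.65 ± 0.09 (SE), or 1.57-fold lower.

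Hoga1, 4-hydroxy-2-oxoglutarate aldolase, splits the last intermediate of hydroxyproline breakdown into glyoxylate and pyruvate. It has 3 probe sets, and they disagree. The brightest read 11.03, 11.08, 10.89, 11.02 and 10.97 in vehicle arrays and 10.51, 10.88, 10.92, 10.51 and 10.87 in dosed arrays. Dosed 1 and dosed 4 stood apart from the other dosed arrays, and dosed 3 lay within the vehicle range. The difference was -0.26 ± 0.09 (SE), with an unadjusted 95% interval from -0.46 to -0.05, and was not called. The next read 9.51, 9.51, 9.39, 9.31 and 9.28 in vehicle and 9.36, 9.39, 9.45, 9.46 and 9.49 in dosed arrays, a difference of 0.03 ± 0.07 (SE). The dimmest read 6.60, 6.58, 6.79, 6.52 and 6.38, and 6.66, 6.62, 6.53, 6.47 and 6.97, a difference of 0.08 ± 0.10 (SE). In both the groups overlapped. Which of the 3 follows the main transcript was not tested.

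Among the enzymes that clear glyoxylate, the reductase was lower and the aminotransferases were not called. Grhpr, glyoxylate and hydroxypyruvate reductase, read 12.74, 12.74, 12.72, 12.62 and 12.74 in vehicle arrays. The dosed arrays read 12.43, 12.49, 12.51, 12.38 and 12.35, again with no overlap and a gap of 0.11. The difference was small, -0.28 ± 0.06 (SE), or 1.22-fold lower. The arrays of each group lay close together, and only 4.04% of probe sets had a vehicle SD below its 0.05.

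Agxt, alanine-glyoxylate aminotransferase, turns glyoxylate into glycine. Its probe set read 11.54, 11.32, 11.37, 11.05 and 11.29 in vehicle and 10.92, 11.17, 11.08, 11.35 and 11.39 in dosed arrays. The groups overlapped over most of their range, and only dosed 1 lay below every vehicle array. The difference was -0.13 ± 0.11 (SE), with a 95% interval from -0.36 to 0.10. It was -0.07 without dosed 1, -0.08 without vehicle 1 and -0.20 without vehicle 4. With beta-actin as the covariate the difference of Agxt was -0.26 ± 0.13 (SE), and with GAPDH -0.23 ± 0.18. Agxt2, the mitochondrial aminotransferase that also handles methylated arginines, read 10.73, 11.03, 11.07, 11.33 and 11.03 in vehicle and 10.79, 11.20, 10.89, 10.77 and 10.55 in dosed arrays. Its difference was -0.20 ± 0.12 (SE), with a 95% interval from -0.47 to 0.07. It was -0.13 without dosed 5, -0.12 without vehicle 4 and -0.03 ± 0.15 (SE) with beta-actin as the covariate. With GAPDH as the covariate the difference of Agxt2 was -0.08 ± 0.21 (SE). Larger falls were seen without dosed 2, at -0.29, and without vehicle 1, at -0.27. On the lower side the intervals reach falls as large as those of Hao1 for Agxt2 and beyond that of Grhpr for Agxt, so the data do not show that the aminotransferases were unchanged.

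Dao, the peroxisomal D-amino acid oxidase, which also makes glyoxylate from glycine, varied widely among the dosed arrays. It read 8.99, 8.97, 8.66, 8.60 and 9.07 in vehicle arrays. Dosed arrays read 8.48, 7.09, 7.66, 8.87 and 8.48, so that dosed 2 and dosed 3 were far below the vehicle range while dosed 4 lay inside it. In all, 4 of 5 dosed arrays lay below every vehicle array. The dosed SD of 0.72 exceeded that of 99.8% of probe sets, beside 0.21 in vehicle arrays, and the dosed arrays spanned 3.45-fold. The mean difference, -0.74 ± 0.27 (SE), was larger than that of Prodh2, yet was not called, and was -0.49 without dosed 2. The 95% interval of Dao ran from -1.33 to -0.15, unadjusted for the number of probe sets. Its lowest array, dosed 2, was also the lowest dosed array of Hao1, but not of Hao2, Prodh2 or Grhpr.

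A measure of RNA quality differed between the groups alongside these values. On each array, control probe sets for GAPDH read the transcript at both ends, and the 3' reading exceeded the 5' reading by 0.45 ± 0.12 in vehicle and 0.23 ± 0.05 in dosed arrays (SD, n = 5 each), with no overlap. A two-sided exact permutation test gave p = 0.00794, the lowest value that 5 against 5 allow, and 0.0159 adjusted over 2 measures. For beta-actin the excess was 1.59 ± 0.12 and 1.40 ± 0.14 (SD), with an exact permutation p of 0.0476, which rose to as much as 0.0952 without vehicle 1, 3 or 4 or dosed 1, 3, 4 or 5. With the GAPDH difference as a covariate Hao2 lay at -2.27 ± 0.47 (SE) and was still called. The calls of Prodh2 (-0.67 ± 0.15), Hao1 (-0.37 ± 0.13) and Grhpr (-0.25 ± 0.10) ended, with larger SEs. The part of RNA quality in the differences was not tested beyond these fits. With the beta-actin difference the call of Grhpr ended at -0.27 ± 0.08, and Dao was called at -1.34 ± 0.24.

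**Figure D2:**
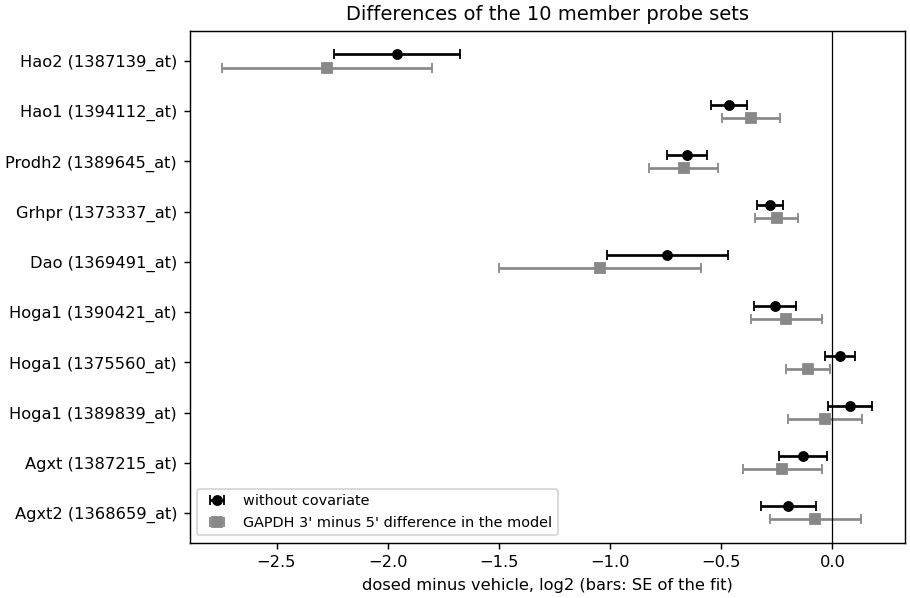
Dosed minus vehicle difference on the log2 scale (x axis) for the 10 member probe sets, with the SE of the fit as bars, without a covariate (circles) and with the GAPDH 3' minus 5' difference of each array in the model (squares). Hao2 lies at -1.96 and -2.27, and the squares carry wider bars throughout.

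Promoters of the 4 called genes are shown because their transcripts were all lower. The windows run from 250 bases before to 50 after the start in RefSeq on assembly GRCr8, of which 10 belong to the 9 genes. The motifs, picked after the sequences had been seen, were searched on both strands and do not overlap one another here: the core of the xenobiotic response element bound by the aryl hydrocarbon receptor (GCGTG), a partial site of the liver factor HNF1 (GTTAAT), and a site of HNF4 (CAAAGTCCA). Capitals mark matches; a match on the other strand is printed as its reverse complement, ATTAAC for GTTAAT. The windows lie at chr2:188913084-188913383 (minus strand) for Hao2, chr3:142281445-142281744 (minus strand) for Hao1, chr1:94880837-94881136 (plus strand) for Prodh2 and chr5:64029606-64029905 (plus strand) for Grhpr.
Hao2: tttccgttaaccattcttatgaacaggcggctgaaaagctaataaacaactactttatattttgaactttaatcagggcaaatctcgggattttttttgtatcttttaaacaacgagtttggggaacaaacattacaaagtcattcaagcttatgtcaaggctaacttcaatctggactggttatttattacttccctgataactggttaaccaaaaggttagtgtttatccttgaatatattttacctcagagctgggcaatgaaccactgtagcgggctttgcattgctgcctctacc
Hao1: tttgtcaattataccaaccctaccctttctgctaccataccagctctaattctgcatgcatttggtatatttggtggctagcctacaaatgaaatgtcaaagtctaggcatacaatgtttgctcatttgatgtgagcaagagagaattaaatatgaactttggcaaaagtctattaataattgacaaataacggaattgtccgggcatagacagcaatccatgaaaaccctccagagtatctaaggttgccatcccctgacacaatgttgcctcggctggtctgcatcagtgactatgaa
Prodh2: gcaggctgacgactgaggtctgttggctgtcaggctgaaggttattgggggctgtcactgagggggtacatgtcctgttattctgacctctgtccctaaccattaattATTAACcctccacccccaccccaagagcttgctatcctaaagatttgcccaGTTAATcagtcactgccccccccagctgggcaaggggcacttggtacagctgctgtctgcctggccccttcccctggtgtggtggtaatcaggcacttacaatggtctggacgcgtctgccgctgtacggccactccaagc
Grhpr: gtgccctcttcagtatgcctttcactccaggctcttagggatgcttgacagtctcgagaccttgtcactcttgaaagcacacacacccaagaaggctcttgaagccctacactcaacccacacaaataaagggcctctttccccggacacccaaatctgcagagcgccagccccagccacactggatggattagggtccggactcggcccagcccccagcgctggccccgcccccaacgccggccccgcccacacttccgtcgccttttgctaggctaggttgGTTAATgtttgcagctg
The partial HNF1 site occurred 2 times in Prodh2, beginning 142 and 91 bases before the start, and 1 time in Grhpr, from base 34 of the transcript, where 7.45% of all 33469 windows hold it. The windows of Hao2 and Hao1 held none of the motifs, and were poor in G and C, at 37.0% and 40.3% against a median of 51.7%. The xenobiotic core was in none of these 4 windows. It was found for Hoga1 and in 1 of 2 windows of Agxt, against 29.7% of all windows. The HNF4 site was found for Agxt2 and Pipox, against 0.391%. These are matches of letters only.

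Some genes of the surrounding pathways also passed the test, in both directions. Of 110 genes on 5 lists 97 were measured, and 4 rose and 6 fell in limma, 10.3% called beside 6.43% of all genes, with a median difference of -0.04. Before adjustment 16 of the 97 were higher and 25 lower at p under 0.05 in limma. Of 16 genes of other glyoxylate and hydroxyproline steps 1 rose and 2 fell, with a median of -0.07. At an unadjusted p under 0.05 in limma 2 were higher and 7 lower. Gpt2, the mitochondrial alanine aminotransferase, fell by 0.69 ± 0.11 (SE, limma adjusted p = 0.00248), and Got2, the mitochondrial aspartate aminotransferase that also acts on the hydroxyproline route, by 0.37 ± 0.06 (limma adjusted p = 0.00355). Gpt, the other alanine aminotransferase gene of the list, went the other way, at 0.47 ± 0.21 (SE). It was not called (limma adjusted p = 0.291), with an unadjusted p under 0.05. Pgp, a phosphatase that makes glycolate from phosphoglycolate, rose by 0.38 ± 0.10 (limma adjusted p = 0.0438). Ldha, the lactate dehydrogenase subunit that oxidises glyoxylate to oxalate, was 13.27 ± 0.16 in vehicle and 13.22 ± 0.10 in dosed livers (SD, n = 5; limma adjusted p = 0.877). Aldh4a1, the dehydrogenase between Prodh2 and Hoga1, differed by -0.10 ± 0.09 (SE, limma adjusted p = 0.692).

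Of 19 genes of glycine, sarcosine and serine breakdown 1 rose and 2 fell, with a median of -0.09. At an unadjusted p under 0.05 in limma 4 were higher and 5 lower. Gnmt, which methylates glycine to sarcosine, fell by 0.47 ± 0.07 (SE, limma adjusted p = 0.00256). Gldc, of the glycine cleavage system, fell by 0.40 ± 0.10 (limma adjusted p = 0.0447), and Shmt2, the mitochondrial serine hydroxymethyltransferase, rose by 0.36 ± 0.08 (limma adjusted p = 0.0186).

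Few other peroxisomal genes were called, in lists too short to set apart from the 6.43% called among all genes. Of 28 other enzymes of the peroxisomal matrix 0 rose and 1 fell in limma, or 3.57%, with a median difference of -0.03. Before adjustment 4 were higher and 4 lower at p under 0.05. The fallen one was Hacl1, a lyase of 2-hydroxyacyl-CoA, at -0.51 ± 0.12 (SE, limma adjusted p = 0.0266). Cat, the catalase that removes the hydrogen peroxide made by Hao1, Hao2 and Dao, differed by -0.04 ± 0.06 (limma adjusted p = 0.876). None of 19 peroxins and membrane proteins passed limma, while before adjustment 3 were higher and 1 lower at p under 0.05, and the median was 0.07.

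Of 15 transcription factors and receptors of liver 2 rose and 1 fell, with a median of -0.22. At an unadjusted p under 0.05 in limma 3 were higher and 8 lower. Cebpb rose by 0.69 ± 0.08 (SE, limma adjusted p = 4.89e-04), Ppara, which drives peroxisomal genes in rodents, by 0.43 ± 0.11 (limma adjusted p = 0.0479), and the bile acid receptor Nr1h4 fell by 0.54 ± 0.10 (limma adjusted p = 0.00584). Hnf4a differed by -0.01 ± 0.07 (limma adjusted p = 0.975). Several of these calls lay near the threshold and ended when 1 array was left out. The call of Pgp ended without any 1 array other than vehicle 3 or dosed 1, that of Gldc without any other than vehicle 2 or dosed 4, and that of Ppara without any other than vehicle 1 or dosed 3. Hacl1 lost its call without vehicle 2, vehicle 4, dosed 1, dosed 2, dosed 3 or dosed 5, and Shmt2 without vehicle 3, dosed 2 or dosed 5. Limma adjusted p in these cases reached 0.104, 0.11, 0.119, 0.0696 and 0.0547 in this order. Of the 97 genes, 1 rose without dosed 2 or dosed 5, 2 rose without dosed 4 or vehicle 2, 3, 4 or 5, and 10 fell without vehicle 5. Of the transcription factors and receptors 3 fell without dosed 3 or vehicle 5 and 2 without dosed 5, and of the matrix enzymes 2 fell without vehicle 1 or vehicle 5. With the GAPDH difference in the model Pgp (0.24 ± 0.16), Got2 (-0.31 ± 0.10), Gldc (-0.31 ± 0.17), Hacl1 (-0.62 ± 0.20) and Ppara (0.13 ± 0.15) lost their calls. With the beta-actin difference the calls of Pgp (0.46 ± 0.12), Gldc (-0.46 ± 0.14), Shmt2 (0.35 ± 0.10), Hacl1 (-0.59 ± 0.16) and Ppara (0.41 ± 0.15) ended, at differences close to or larger than those without it and with larger SEs.

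**Figure D3:**
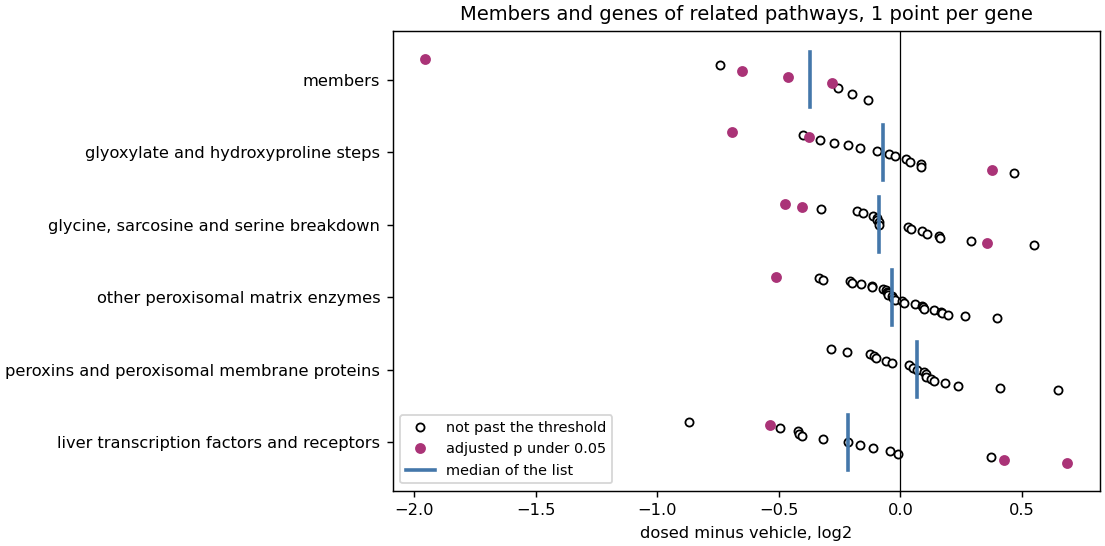
Dosed minus vehicle difference on the log2 scale (x axis), 1 point per gene, for the members and 5 lists of related genes; filled points passed a limma adjusted p of 0.05 and vertical bars are medians. The members' median is -0.37, and those of the other lists run from -0.22 to 0.07.

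Several markers of hepatocyte zones and 1 of macrophages fell as well, where 3.11% of all genes were called lower and 3.32% higher after adjustment. These shares do not apply to the unadjusted counts of markers given below, for which no share of all genes was worked out. Of 6 periportal markers 4 fell and 0 rose in limma: Hal, Gls2, Uroc1 and Cdh1, at -1.10 ± 0.24, -0.87 ± 0.10, -0.80 ± 0.08 and -0.41 ± 0.07 (SE). The summed linear level of the 6 ran from 24676 to 27348 in vehicle and from 17550 to 20094 in dosed arrays. At an unadjusted p under 0.05 in limma 5 were lower and 1, Sds, which is also on the list of glycine and serine genes, was higher. Of 5 pericentral markers 2 fell and 0 rose, with 1 higher at an unadjusted p under 0.05: the glutamine synthetase gene Glul by 0.98 ± 0.13 and Cyp2e1 by 0.33 ± 0.06 (SE). Their sum ran from 29036 to 31529 and from 21860 to 26617. All 6 macrophage markers had a lower mean, of which C1qa passed limma (-0.37 ± 0.08), with 5 lower and 0 higher at an unadjusted p under 0.05, and their summed level was 5939 to 7198 in vehicle and 4209 to 5595 in dosed arrays. The part of zonal or cell-type makeup in the members' differences was not tested.

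Other cell types gave smaller or single-gene differences. Of 7 hepatocyte markers 1, Apoa1, rose and 0 fell, with summed levels from 147753 to 153886 in vehicle and from 146604 to 155773 in dosed arrays. None of 5 endothelial markers was called (sums 4170 to 4705 and 3658 to 4304), nor of 5 bile duct markers (449 to 582 and 480 to 667) or of 5 lymphocyte markers (442 to 529 and 408 to 478). At an unadjusted p under 0.05 in limma 0 of these were higher, and 1 endothelial marker was lower. Of 7 stellate cell markers Lrat alone passed, at -0.51 ± 0.10 (SE), with sums from 3075 to 3857 and 2636 to 3367. Hao2 and Dao are also expressed in kidney, and 1 of 6 kidney markers, Lrp2, fell by 0.37 ± 0.09 (SE), with sums from 352 to 383 and 315 to 347. Another, Slc22a6, was higher at an unadjusted p under 0.05 in limma, at 0.23 ± 0.09 (SE), and was not called. Of 7 pancreas markers Cpa1 alone passed, at -2.10 ± 0.28 (SE), and sums ran from 2344 to 4199 and from 895 to 1513. The other acinar markers were not called, and 1 of them, Cela1, was higher at an unadjusted p under 0.05, at 0.49 ± 0.17 (SE).

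Genes with profiles near that of Hao2 were sought by the root mean square distance of profiles over the 10 arrays, each relative to its own vehicle mean. The nearest of the other genes were Slc34a2, a phosphate transporter, at a distance of 0.39, Resp18 at 0.42, Cadps, which primes secretory vesicles, at 0.48, Fmo1, a flavin-containing monooxygenase, at 0.52 and Sez6 at 0.53. The median distance over the other genes was 1.47. The choice by distance brings in genes with falls like that of Hao2, here from -1.62 to -2.46. It does not require that they follow Hao2 within a group. In vehicle 2 Hao2 lay at -0.47, Slc34a2 at -0.56 and Sez6 at 0.54 from their vehicle means. Slc34a2 ran from 8.02 to 9.43 in vehicle and from 6.24 to 7.37 in dosed arrays, about the spread of Hao2. Fmo1 had a larger difference than Hao2, -2.46 ± 0.14 (SE), but its arrays lay closer together, with SDs of 0.16 and 0.31.

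**Figure D4:**
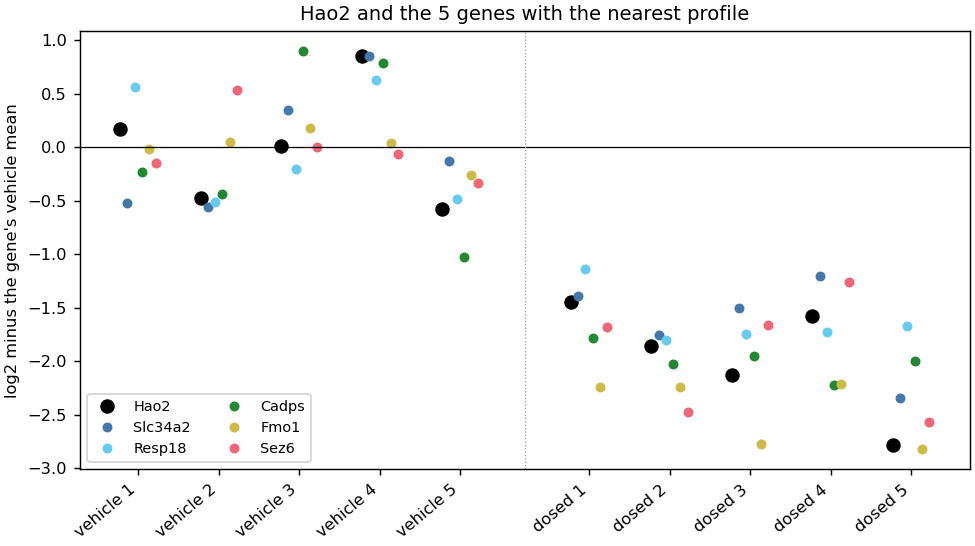
Log2 level relative to the gene's own vehicle mean (y axis) in each of the 10 arrays (x axis) for Hao2 and the 5 genes with the nearest profiles. The lowest Hao2 point is dosed 5, and all 6 genes lie lower in dosed than in vehicle arrays.

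For Prodh2 the nearest profiles were those of C2cd2 at 0.07, Ehbp1 at 0.09, the glycerol kinase gene Gk at 0.10, the sphingosine-1-phosphate receptor gene S1pr1 at 0.10 and Fn3k, a kinase of glycated proteins, at 0.11, against a median of 0.50 over the other genes. Their differences lay between -0.57 and -0.71, close to the -0.65 of Prodh2.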

How the data were processed

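The deposited values are log2 expression values of 10 arrays, made by the authors with RMA per the submitters' processing notes; its version is not given in the sources used here. After 57 control probe sets were left out, 31042 remained, of which 20826 name 1 gene, 436 several and 9780 none in the platform annotation. Symbols were brought up to date through RefSeq for 20758. A gene was represented by its brightest probe set. The groups were compared with limma 3.58.1 (R 4.3.3; lmFit, eBayes), adjusted by Benjamini-Hochberg over all probe sets, after the code was tested on simulated data; 2 array measures were compared by exact permutation (SciPy 1.17.1). No depth exists for arrays, and 5 per group limit the precision.

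Members, lists and tests were chosen with earlier results of these data known. Named genes are all members, up to 3 called genes with the largest differences per neighbour list (5 lists), and the 5 nearest profiles of Hao2 and of Prodh2. Prodh2 is the called member with the next largest difference, as Dao was not called. Ldha, Aldh4a1, Gpt, Cat and Hnf4a were named after their values were seen. Another 10 lists held cell type markers. The labels do not say whether equal replicate numbers pair samples, and the main fit did not pair them. Alternatives were an intensity trend, array weights, quantile normalisation, a dim filter, averaged probe sets, a replicate block, RNA quality covariates, an adjusted p of 0.01 and leaving out each array.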

Additional observations from a re-analysis of the deposited data

Results flagged for a closer look

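In Grhpr, vehicle 4 lay apart from the other vehicle arrays, at a log2 level of 12.62 where the nearest of them read 12.72; this gap was 0.82 of the group's whole range, over Dixon's 95% critical value of 0.71 for 5 samples. It was the only one of 44 groups of 5 tested, and chance marks about 1 group in 20. Vehicle 4 was still 0.11 above the highest dosed array.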

How the results depend on the processing

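None of the 4 called members, the 10 called neighbour genes named and the 2 array measures changed direction under the alternatives run on them; markers of cell types and nearest profiles were not refitted. Over all probe sets 1487 were called, against 355 with the GAPDH covariate, 752 with the beta-actin covariate and 646 at an adjusted p under 0.01. Array weights gave 2226, the highest count, and leaving out 1 array gave 1035 to 2085. Members called lower numbered 4, and 1 (Hao2) with the GAPDH covariate; all 4 calls were made in every fit that left out 1 array. The replicate block gave 1032 probe sets and 3 members, without Grhpr. Under it the SE of Hao2 was 0.15 rather than 0.28, and that of Grhpr 0.07 rather than 0.06. Same-numbered arrays had residual correlations from -0.28 to 0.22, which do not settle whether samples were paired. Of the neighbour genes 4 rose, against 2 with either covariate, 1 at an adjusted p under 0.01 and 1 to 3 when 1 array was left out. More rose with quantile normalisation, 6, and with the replicate block, 5. In the main fit 6 neighbour genes fell, against 12 with array weights and 4 to 10 when 1 array was left out. The beta-actin difference lay between -0.23 and -0.14 when 1 array was left out, with exact permutation p from 0.0317 to 0.0952.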
